A study of Mus musculus with 8 samples.

Results

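The genes described here encode receptors, granule proteins and a transcription factor of natural killer (NK) cells and cytotoxic T cells. They are a list of 10 named genes, Ncr1, Klrb1c, Klrd1, Klrk1, Klrg1, Gzma, Gzmb, Prf1, Nkg7 and Eomes, chosen by name. All 10 were found by Ensembl identifier among the 51826 genes of the count table, and all 10 were among the 16484 genes that passed the filter on low counts and were tested.

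The spleens of 8 BALB/c mice, 4 controls and 4 given tRA, were taken when the animals were 3 months old, and RNA from all splenocytes together was sequenced. All-trans retinoic acid (tRA) is the active metabolite of vitamin A, and the comparison asks how daily oral tRA, begun at weaning, changed gene expression in the spleen before any induction of lupus. The tRA mice received 1 mg/kg body weight, and the controls received vehicle, canola oil, in the study's methods. The treatment text in the labels gives 1 mg/kg of tRA for all 8 samples, the controls included, so the grouping rests on the sample titles. Both groups share the strain, the age, the female sex and the absence of pristane, the oil that induces lupus in this strain. NK cells and T cells were not separated from the other splenocytes, so each value is an average over all cells of the preparation.

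NK cells kill infected or transformed cells without prior priming, guided by the balance between activating and inhibitory receptors at their surface. On contact with a target they release granules that hold perforin, which opens the target membrane, and granzymes, proteases that enter the target and start its death. Cytotoxic T cells use the same granules and carry several of the same receptors, and in the spleen both are a minority beside B cells and helper T cells.

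Counts on genes totaled between 30919272 and 37539631 per control mouse and between 31810417 and 35165876 per tRA mouse. The raw counts of the 10 genes ran from 242 for Klrg1 in control mouse 4 to 7150 for Gzma in control mouse 3, so that all were well covered. Levels are given in CPM, counts scaled by the TMM method to a library of 1e6.

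Of the 10 genes, 5 were higher and 5 were lower in the tRA mice, and their median log2 fold change (tRA over control) was -0.0092 beside 0.0014 over all genes tested. Among all genes tested 50.3% were higher, the share that stands beside the counts of every list below. With edgeR's quasi-likelihood test and p values adjusted over all genes by the Benjamini-Hochberg method (FDR), 0 of the 10 had an FDR under 0.1, as did 0% of all genes tested. At an unadjusted p under 0.05 there were 0 of the 10, beside 6.49% of all genes, 2.94% higher and 3.55% lower with tRA. DESeq2 and limma-voom also gave 0 of the 10 at either threshold. At an FDR under 0.1 DESeq2 had 27 of the 13625 genes to which it gave an adjusted p (0.198%), and limma-voom had 1 of 16484 (0.00607%). For 0 of the 10 did the 4 mice of one group all lie on one side of the 4 mice of the other, which held for 3.54% of all genes. The log2 fold changes ran from -0.13 for Gzma to 0.27 for Ncr1, and the FDR from edgeR's quasi-likelihood test ran from 0.792 to 0.986. The 95% confidence intervals all held 0, and together they reached from -0.49 to 0.63, a ratio of 0.711 to 1.54. In bulk RNA, fewer cells of a type and less RNA per cell cannot be told apart, for these genes as for those that follow.

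**Figure D1:**
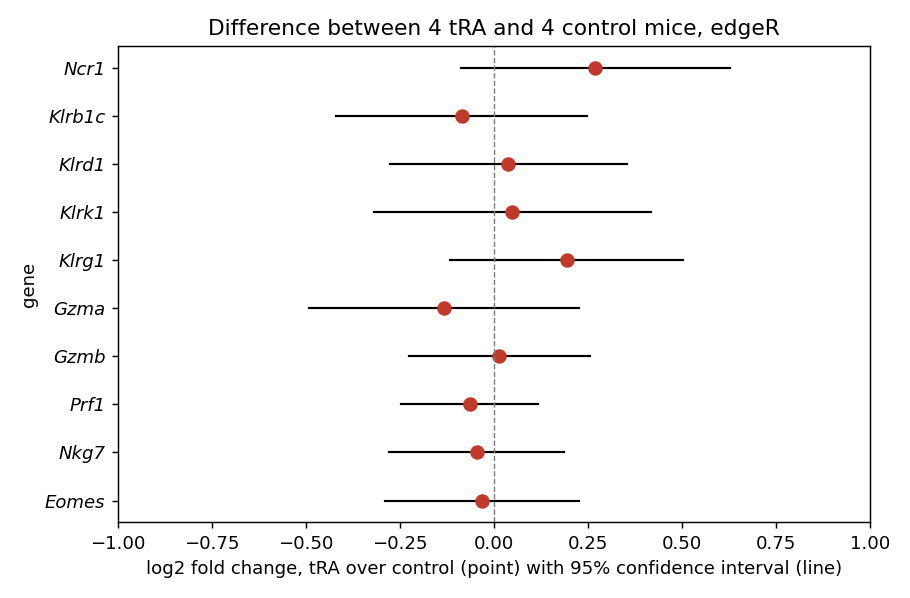
Log2 fold change of each of the 10 genes, tRA over control (horizontal axis), as points with 95% confidence intervals as lines, from edgeR's fit of 4 tRA and 4 control mice. All 10 intervals cross 0, and 8 of them lie within 0.5 of it on the log2 scale.

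Ncr1 (ENSMUSG00000062524, chr7:4337724-4345164, GRCm38) encodes NKp46, an activating receptor that marks NK cells in mouse and human. It was measured at 36.3, 60.7, 58.5 and 40.4 CPM in control mice 1 to 4 and at 50.3, 62.1, 66.5 and 57.2 CPM in tRA mice 1 to 4. Control mice 1 and 4 lay below every tRA mouse, whereas control mice 2 and 3 lay within the range of the tRA mice, so the groups overlapped. The mean was 49.0 ± 12.4 CPM (SD, n = 4) in controls and 59.0 ± 6.95 CPM (SD, n = 4) with tRA. The log2 fold change was 0.27 (standard error 0.162, 95% interval -0.09 to 0.63), and its FDR from edgeR's quasi-likelihood test was 0.792. Ncr1 had the lowest unadjusted p of the 10, 0.126 by edgeR. An exact permutation test of the mice gave p = 0.257 (two-sided), where the smallest p that 4 mice against 4 allow is 0.0286. Without control mouse 2 the unadjusted p of Ncr1 by edgeR was 0.0376, while its FDR stayed above 0.1. Without control mouse 1 its log2 fold change was 0.15, with an unadjusted p of 0.332 by edgeR.

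Klrb1c (ENSMUSG00000030325, chr6:128778485-128789215) encodes NKR-P1C, the activating receptor known in other strains as the NK1.1 antigen; the BALB/c form is not bound by the NK1.1 antibody, so its transcript has no counterpart in that staining. Its level was 10.9, 12.4, 17.2 and 11.6 CPM in control mice 1 to 4 and 12.0, 12.9, 13.7 and 10.5 CPM in tRA mice 1 to 4. Control mouse 3 stood above the other 7, which lay close together in both groups. The log2 fold change was -0.09 (standard error 0.151). Its exons share 413 bases with Gm44511 on the same strand, and the receptor genes of this region differ between BALB/c and the reference strain, so its count is uncertain.

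Klrd1 (ENSMUSG00000030165, chr6:129591782-129598775) encodes CD94, the common partner of the NKG2 receptor chains that read the nonclassical class I molecule Qa-1. It was measured at 35.2, 49.7, 57.2 and 35.8 CPM in control mice 1 to 4 and at 47.0, 45.5, 44.8 and 45.3 CPM in tRA mice 1 to 4. The tRA mice were nearly equal and sat in the gap between the lower and the higher control mice, so the means of 44.5 ± 10.8 and 45.6 ± 0.959 CPM (SD, n = 4 each) were alike while the spreads were not. The log2 fold change was 0.04 (95% interval -0.28 to 0.35).

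Klrk1 (ENSMUSG00000030149, chr6:129610323-129623864), next to Klrd1 in the NK gene complex, encodes NKG2D, an activating receptor for stress-induced ligands. It stood at 18.9, 26.4, 34.6 and 21.6 CPM in control mice 1 to 4 and at 24.3, 24.0, 30.1 and 26.4 CPM in tRA mice 1 to 4. All tRA mice lay within the range of the controls, and the log2 fold change was 0.05 (95% interval -0.32 to 0.42). Klrg1 (ENSMUSG00000030114, chr6:122270596-122282882) encodes an inhibitory receptor for cadherins, carried by mature NK cells and effector T cells. Its level was 7.17, 9.06, 10.4 and 7.82 CPM in control mice 1 to 4 and 9.83, 10.7, 10.5 and 8.37 CPM in tRA mice 1 to 4. With tRA, mice 2 and 3 lay just above the highest control and mouse 4 lay among the controls. The log2 fold change of Klrg1 was 0.19 (standard error 0.140, 95% interval -0.12 to 0.50), and its exact permutation p was 0.200 (two-sided), the lowest of the 10 genes. That log2 fold change was 0.11 without control mouse 1 and 0.29 without control mouse 3.

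**Figure D2:**
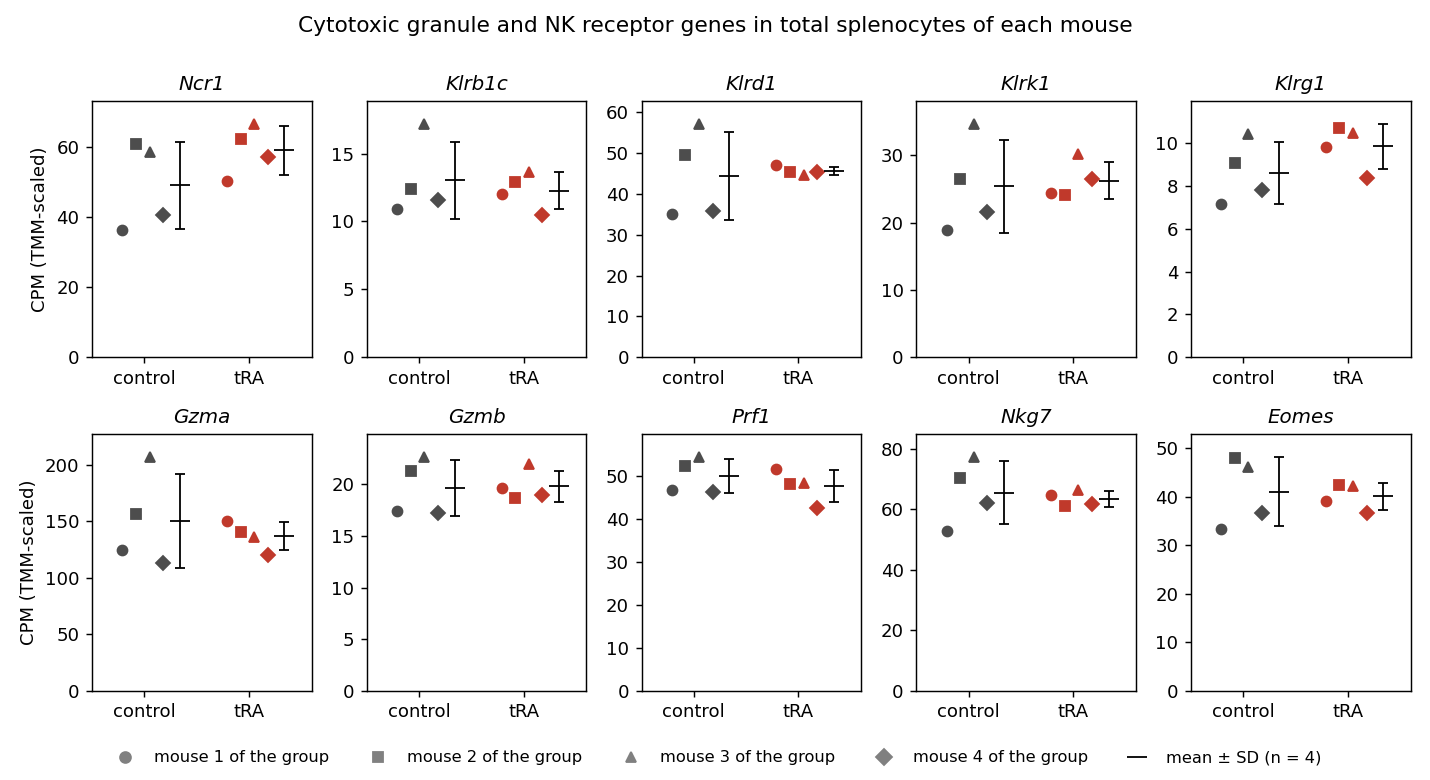
CPM (vertical axes, from 0) of each of the 10 genes in each control mouse (grey) and tRA mouse (red), with the mean and SD of each group (n = 4) beside the points. Control mice 1 and 4 are the lowest pair of the controls in all 10 panels, and all 4 tRA mice lie within the range of the controls in 6 of them.

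Among the granule proteins, Gzma (ENSMUSG00000023132, chr13:113093825-113100981) encodes granzyme A, a trypsin-like protease stored in resting NK cells. Its level was 125, 157, 207 and 113 CPM in control mice 1 to 4 and 150.4, 141, 136 and 120.4 CPM in tRA mice 1 to 4. Control mouse 3 was far above the rest, and all tRA mice lay between control mice 4 and 2. Gzma had the lowest log2 fold change of the 10, -0.13 (standard error 0.163, 95% interval -0.49 to 0.23), from means of 150.2 ± 41.9 and 137 ± 12.5 CPM (SD, n = 4 each). The difference was smaller than the spread between control mice, and without control mouse 3 the log2 fold change was 0.05.

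Gzmb (ENSMUSG00000015437, chr14:56258838-56262260) encodes granzyme B, which cleaves after aspartate and activates caspases in the target cell. It was measured at 17.4, 21.3, 22.6 and 17.2 CPM in control mice 1 to 4 and at 19.6, 18.7, 22.0 and 19.0 CPM in tRA mice 1 to 4. All tRA mice lay within the wider range of the controls, and the log2 fold change was 0.01 (95% interval -0.23 to 0.25), the smallest in size of the 10.

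Prf1 (ENSMUSG00000037202, chr10:61297833-61304680) encodes perforin, the pore-forming protein through which granzymes reach the target. It stood at 46.7, 52.1, 54.2 and 46.2 CPM in control mice 1 to 4 and at 51.5, 48.1, 48.3 and 42.5 CPM in tRA mice 1 to 4. Only tRA mouse 4 lay outside the range of the controls, below it. Prf1 had the narrowest interval of the 10, -0.25 to 0.12 around a log2 fold change of -0.07 (standard error 0.0823). Its log2 fold change was -0.0146 without tRA mouse 4 and -0.0005 without tRA mice 3 and 4. Nkg7 (ENSMUSG00000004612, chr7:43437073-43438249) encodes a granule membrane protein needed for the release of the granules. Its level was 52.8, 70.2, 77.2 and 62.0 CPM in control mice 1 to 4 and 64.7, 61.0, 66.6 and 61.8 CPM in tRA mice 1 to 4. The tRA mice spanned a ratio of 1.09 from lowest to highest and the controls 1.46, and the log2 fold change was -0.05 (95% interval -0.28 to 0.19).

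Eomes (ENSMUSG00000032446, chr9:118478212-118486132), the T-box factor that NK cells and memory CD8 T cells need for maturation, was the regulator among the 10 genes. It was measured at 33.3, 48.0, 46.1 and 36.6 CPM in control mice 1 to 4 and at 39.2, 42.4, 42.2 and 36.6 CPM in tRA mice 1 to 4. All tRA mice lay within the range of the controls, and the log2 fold change was -0.03 (95% interval -0.29 to 0.23). Its exons share 118 bases with the antisense gene Gm33460, and as the strand setting of the counting is not given in the sources used here, reads of the pair cannot be told apart there.

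The signs of these small differences were not stable. With 1 mouse left out, the log2 fold change changed sign for 7 of the 10 genes and kept it for 3, Ncr1, Klrg1 and Prf1. Without control mouse 3 it was above 0 for Klrb1c (0.07), Nkg7 (0.04) and Eomes (0.02) as well as for Gzma, and without control mouse 2 it was 0.05 for Eomes, which was also just above 0 without tRA mouse 4. Without control mouse 1 it was below 0 for Klrd1 (-0.06), Klrk1 (-0.07) and Gzmb (-0.04), and without control mouse 4 it was -0.05, -0.02 and -0.04 for the same genes. Klrk1 and Gzmb were also below 0 without tRA mouse 3, at -0.03 and -0.04.

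Divided by the summed length of the exons, the levels can be ordered only roughly between genes. That length joins all annotated exons of a gene, 7183 bases for Klrk1, and can exceed the length of the transcript expressed. The mean over 8 mice was highest for Gzma at 143 CPM per kb of exon, followed by Nkg7 at 70.6. Klrd1 at 35.2 and Ncr1 at 35.1 CPM per kb came next and did not differ beyond the spread between mice. Prf1 stood at 18.9, Gzmb at 13.7, Eomes at 9.76 and Klrg1 at 6.53 CPM per kb. The lowest were Klrb1c at 4.27 and Klrk1 at 3.59 CPM per kb, which overlapped in the controls with SDs of 0.962 and 0.963. The granzyme A transcript per kb was thus above that of granzyme B in control mice (149 ± 41.6 against 13.7 ± 1.90, SD, n = 4) and in tRA mice (136 ± 12.4 against 13.8 ± 1.04, SD, n = 4).

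The 10 genes moved together from mouse to mouse. Control mice 1 and 4 had the lowest values of the controls for 10 of the 10 genes, and control mouse 1 was the lowest of all 8 mice for 6. Averaged over the 10 genes as centred log2 CPM, control mice 1 to 4 stood at -0.28, 0.11, 0.30 and -0.20, and tRA mice 1 to 4 at 0.014, 0.035, 0.11 and -0.09. Relative to the geometric mean over 8 mice, this put control mouse 1 at 82.3% and control mouse 3 at 123%, with tRA mice between 94.3% and 108%. The SD of these averages was 0.27 in the controls and 0.082 with tRA, and the SD of log2 CPM was smaller with tRA for 9 of the 10 genes, Prf1 being the other, and for 53.2% of all genes tested. The difference in spread was not tested. With RLE scaling and with library size alone, control mice 1 and 4 were again the lowest pair of the controls for 10 of the 10, and the SD was smaller with tRA for 9 and 10.

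All 45 pairs of the 10 genes had a Pearson r above 0 over 8 mice, from 0.28 to 0.92 with a median of 0.77. With the mean of the other members, the r ran from 0.69 for Prf1 (Spearman rho = 0.79) to 0.93 for Klrd1 (rho = 0.74). The order depended on the measure: by rho Ncr1 was lowest (0.67) and Klrk1, Gzmb and Eomes were highest (0.88 each). Without control mice 1 and 3, the farthest from the median, the r ran from 0.57 for Prf1 to 0.88 for Gzmb, with 0.78 for Klrd1. These are descriptions over 8 libraries whose points share depth and cell composition. Over the 16474 other genes tested, the r with the mean of the 10 had a median of 0.028, and 219 genes, or 1.33%, had an r above 0.8.

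Outside the 10 genes, the highest r with their mean over 8 mice was that of Sclt1 (0.98), and other genes with a high r were Podxl (0.97), Cdc16 (0.96), Fibp (0.96), Ushbp1 (0.96), Nectin2 (0.96), Mrps11 (0.95), E130307A14Rik (0.95) and Ggnbp1 (0.95). Of these, Nectin2, a cell adhesion molecule bound by the NK receptor Cd226, stood on the companion list of ligands, and its level was low at 0.999 CPM in controls and 0.837 CPM with tRA. Podxl was also low, at 0.647 and 0.682 CPM.

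Of 25 further receptors of NK cells tested, 19 were higher and 6 lower, beside 50.3% of all genes higher. Their median log2 fold change was 0.15, and 0 had an FDR under 0.1 by edgeR. Only Cd226, the activating receptor DNAM-1, had an unadjusted p under 0.05 (0.0396 by edgeR), with 24.7 ± 2.46 CPM in controls and 28.9 ± 2.61 CPM with tRA (SD, n = 4 each, exact permutation p = 0.0857). Cd96, a receptor that shares the ligand of Cd226, was the most abundant per length at 31.8 CPM per kb. Their mean over mice followed that of the 10 genes (r = 0.80, rho = 0.62, n = 8; 0.60 without control mice 1 and 3). For other lists the r was 0.64 for the adapters, 0.64 for the other granzymes and -0.43 for the lineage regulators (rho = 0.48, 0.67 and -0.21, n = 8). Without control mice 1 and 3 it was -0.03, -0.14 and -0.16 for the same lists. Without tRA mice 3 and 4 the median of the receptor list was 0.027. Klra6 was listed at 0 in all 8 mice, which allows up to 3 counts a library, or 0.0969 CPM. The Klra genes differ in number and sequence between BALB/c and the reference strain, so their counts are uncertain.

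Of 11 adapters that carry the signals of these receptors, 3 were higher and 8 lower, with a median of -0.05 and 0 at an unadjusted p under 0.05. Tyrobp (DAP12), which couples several activating receptors, was the most abundant per length at 162.5 CPM per kb. The 12 ligands were divided, 6 higher and 6 lower, with a median of 0.0074, and H2-T23, the Qa-1 gene read by CD94, was the most abundant per length at 149 CPM per kb. At an unadjusted p under 0.05 there were 3 ligands, all higher with tRA, and 0 had an FDR under 0.1. Clec2i, a lectin ligand of the NKR-P1 receptor family, was measured at 69.0, 78.3, 74.6 and 59.98 CPM in control mice 1 to 4 and at 80.6, 86.2, 91.7 and 90.9 CPM in tRA mice 1 to 4. Every tRA mouse lay above every control for Clec2i, the only 1 of the 12 ligands without overlap of the groups, beside 3.54% of all genes. Its log2 fold change was 0.31 ± 0.0871 (standard error), with an FDR of 0.757 by edgeR, and it was 0.24 to 0.36 with each mouse left out. Pvr, a ligand that Cd226 and Cd96 bind, stood at 20.2 ± 1.45 CPM in controls and 23.4 ± 1.85 CPM with tRA (SD, n = 4 each), a log2 fold change of 0.21. Clec2g, of the same lectin family as Clec2i, had means of 1.09 CPM in controls and 1.73 CPM with tRA. Its log2 fold change of 0.68 (standard error 0.287) was 0.32 without tRA mice 3 and 4.

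Of 13 further granzymes and granule proteins tested, 7 were higher and 6 lower, with a median of 0.0040. Serpinb9, the inhibitor that shields a cytotoxic cell from its own granzyme B, was the only one at an unadjusted p under 0.05 (0.0486 by edgeR), with 15.3 ± 0.900 CPM in controls and 17.6 ± 1.37 CPM with tRA (SD, n = 4 each, exact permutation p = 0.0571). Without a filter on low counts, and with limma-voom, robust empirical Bayes or the replicate block, 0 of this list had such a p. Calr, calreticulin, was the most abundant of the list per length at 269 CPM per kb, and Gzmd, Gzme and Gzmg were listed at 0 in all mice. The 10 genes of granule exocytosis, 5 higher and 5 lower, had a median of 0.019 and 0 at an unadjusted p under 0.05, with Stxbp2 the most abundant per length at 45.8 CPM per kb.

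Of 9 effector cytokines and death ligands tested, 3 were higher and 6 lower, with a median of -0.15. By edgeR, 2 of them (Ifng and Xcl1) were at an unadjusted p under 0.05, and 0 at an FDR under 0.1. Ifng, interferon gamma, was measured at 15.8, 14.8, 17.9 and 14.1 CPM in control mice 1 to 4 and at 15.2, 10.5, 7.75 and 9.20 CPM in tRA mice 1 to 4. Its low values lay in tRA mice 2, 3 and 4, with tRA mouse 1 among the controls, and the log2 fold change was -0.55 (standard error 0.185, FDR 0.757 by edgeR). Xcl1, a chemokine of NK and CD8 T cells that draws dendritic cells, had the same order among the tRA mice, with 6.17 ± 0.327 CPM in controls and 4.30 ± 1.27 CPM with tRA (SD, n = 4 each, log2 fold change -0.52). Ccl5, a chemokine of cytotoxic cells and the most abundant of the list at 82.9 CPM per kb, had a log2 fold change of -0.11. The immediate early genes, which are switched on within minutes of stimulation or handling, were as a list lowest in tRA mice 3 and 4: all 10 were lower with tRA, with a median of -0.49 and 3 (Egr1, Jun and Fosb) at an unadjusted p under 0.05. Their summed level was 16323, 15466, 14579.5 and 13276 CPM in control mice 1 to 4 and 15586, 12029.7, 5546 and 7033 CPM in tRA mice 1 to 4, Fos being the most abundant per length. Without tRA mice 3 and 4 the median was -0.0045 for the immediate early genes and 0.018 for the effector cytokines, and the log2 fold changes of Ifng and Xcl1 were -0.28 and -0.26. In that fit 5 of the 10 immediate early genes were higher with tRA, while the log2 fold changes of Egr1, Jun and Fosb were still -0.42, -0.34 and -0.34. With all mice, the groups did not overlap for 3 of the 10, beside 3.54% of all genes. For Egr1, Jun and Fosb every tRA mouse, mouse 1 included, lay below every control. The part of the immediate early genes in the cytokine values was not tested.

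Of 15 regulators of the NK and cytotoxic lineages, 6 were higher and 9 lower, with a median of -0.04 and 0 at an unadjusted p under 0.05. Klf2, a factor of lymphocyte quiescence and trafficking, was their most abundant gene per length at 525 CPM per kb. Cytokine receptors and their signalling genes were higher in 12 of 13 and lower in 1, beside 50.3% of all genes higher. Their median of 0.05 lay between 0.032 (without tRA mouse 3) and 0.10 (without tRA mouse 1) with 1 mouse left out. Without tRA mice 3 and 4, 8 of the 13 were higher, by a median of 0.019. Stat4, the factor through which IL-12 acts on NK cells, was measured at 39.6, 33.5, 44.6 and 41.7 CPM in control mice 1 to 4 and at 46.8, 48.5, 49.9 and 46.4 CPM in tRA mice 1 to 4. All tRA mice lay above all controls for Stat4, the only 1 of the 13 without overlap of the groups, beside 3.54% of all genes. The log2 fold change was 0.27 ± 0.0880 (standard error) with an FDR of 0.757 by edgeR, and it lay between 0.19 and 0.32 with each mouse left out. Its exons share 1033 bases with Gm28177 on the same strand. Il2rg, the common gamma chain, was the most abundant per length at 174.5 CPM per kb. Of 10 trafficking receptors, 7 were higher and 3 lower, with a median of 0.16 that was -0.06 without tRA mice 3 and 4. Spn (CD43), the only one at an unadjusted p under 0.05, had a log2 fold change of 0.28 that was 0.10 without those mice. Cd27 at 59.3 and Spn at 57.1 CPM per kb were the most abundant per length and did not differ beyond the spread between mice.

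Markers of other splenic cells were set beside the 10 genes. T cell markers were higher in 8 of 10 and lower in 2, beside 50.3% of all genes higher. Their median was 0.12, and 1, Cd28, had an unadjusted p under 0.05 by edgeR. Their summed level was 1646, 1734, 2008 and 2013 CPM in control mice 1 to 4 and 1961, 1916, 1978 and 1930.2 CPM in tRA mice 1 to 4, Lck being the most abundant per length at 177 CPM per kb. It was low in control mice 1 and 2, whereas the 10 genes were low in control mice 1 and 4, and the r with their mean was 0.32 (rho = 0.00, n = 8; -0.57 without control mice 1 and 3). The erythroid markers varied most between mice, with 847, 1609, 2476 and 522 CPM in control mice 1 to 4 and 2321, 660.3, 3708 and 625 CPM in tRA mice 1 to 4, led by Hbb-bs. Their order followed that of the 10 genes in part (r = 0.73, rho = 0.67, n = 8; 0.79 without control mice 1 and 3), control mice 1 and 4 being the lowest of the controls for both. Of these 7 markers, 6 were higher and 1 lower, with a median of 0.43 that was -0.16 without tRA mouse 3. Monocyte and macrophage markers, 4 higher and 4 lower with a median of 0.0059, summed to 821, 1351, 1247 and 988 CPM in control mice 1 to 4 and to 976, 1157, 1261 and 1267 CPM in tRA mice 1 to 4, with Lyz2 the most abundant per length (r = 0.63, rho = 0.69, n = 8; 0.57 without control mice 1 and 3). Control mice 1 and 4 were again the lowest of the controls. Red blood cells were lysed when the splenocytes were prepared, and these transcripts remained. The part of erythroid and myeloid cells in the levels of the 10 genes was not tested.

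The neutrophil precursor markers did not follow the 10 genes (r = 0.018, rho = 0.29, n = 8; -0.26 without control mice 1 and 3). All 8 were lower with tRA, with a median of -0.90, and 7 had an unadjusted p under 0.05, among them Camp (log2 fold change -1.23, FDR 0.135 by edgeR), Ngp, Ltf, Lcn2, Prtn3 and Mpo. Their summed level was 552, 697, 737 and 632 CPM in control mice 1 to 4 and 251, 314, 344 and 491 CPM in tRA mice 1 to 4, with Ngp the most abundant per length. The sum separated the groups, as did 5 of the 8 markers alone, beside 3.54% of all genes. B cell markers were higher in 5 of 8 and lower in 3 (median 0.025), led by Cd79a, and the r of their mean with the 10 genes was -0.08 (rho = -0.12, n = 8; 0.82 without control mice 1 and 3). Plasma cell markers were higher in 3 of 6 and lower in 3 (median -0.08), with Jchain and Mzb1 lower at an unadjusted p under 0.05. Markers of other innate lymphoid cells and NKT cells were higher in 6 of 8 and lower in 2 (median 0.14), with Il7r and Tcf7 higher at an unadjusted p under 0.05. Their median was 0.07 without control mouse 3 and 0.24 without tRA mouse 2, and without tRA mice 3 and 4 it was -0.04, with 3 of 8 higher. Of 5 basophil and mast cell markers, 4 were higher and 1 lower (median 0.035), with Kit the most abundant per length. In these marker lists 0 genes had an FDR under 0.1 by edgeR and 0 were listed at 0. By DESeq2, 4 of the neutrophil precursor markers had an FDR under 0.1, beside 0.198% of all genes to which it gave an adjusted p. By edgeR without tRA mouse 4 there were 3, beside 3 of all 16732 genes tested in that fit. In simulated data, 46 of the 192 DESeq2 calls at this threshold were false.

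Medians close to 0 changed sign with 1 mouse left out. They were -0.05 for the ligands without tRA mouse 4, -0.06 for the other granzymes without control mouse 1, -0.0026 for exocytosis without tRA mouse 4 and 0.0033 for the regulators without control mouse 1. Among the markers they were -0.04 for B cells without control mouse 4, -0.07 for monocytes without tRA mouse 3 and -0.02 for basophils and mast cells without control mouse 3. Other medians moved by over 1.5 times with the same sign. For the T cell markers the median was 0.037 without control mouse 1 and 0.19 without control mouse 4, and for the plasma cell markers it was -0.18 without tRA mouse 1. For the immediate early genes it was -0.88 without tRA mouse 1 and -0.29 without tRA mouse 3, and for the effector cytokines -0.33 and -0.08 without the same mice. It was -0.0058 for the adapters and 0.85 for the erythroid markers without control mouse 3, -0.09 for the regulators without control mouse 3, and 0.09 for the trafficking receptors without control mouse 1.

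**Figure D3:**
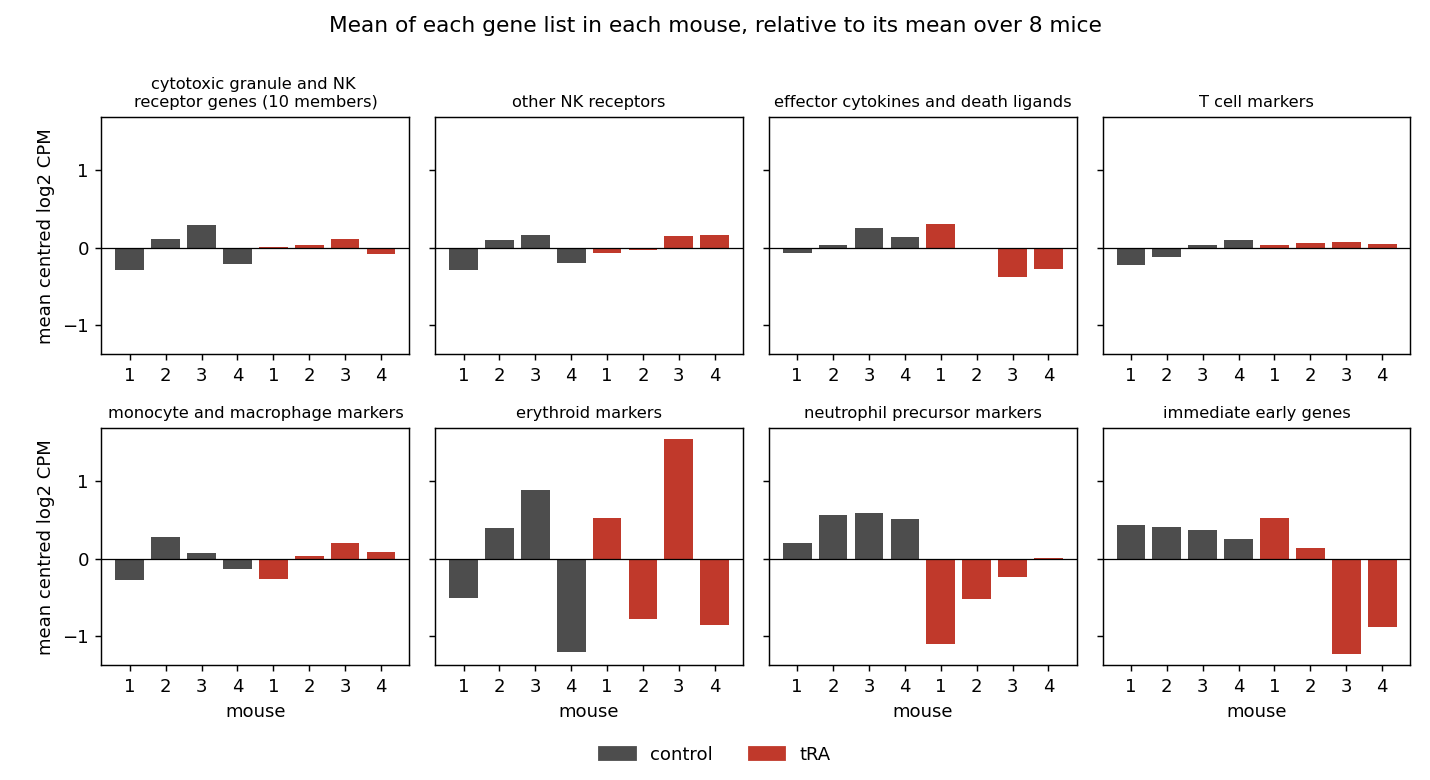
Mean centred log2 CPM (vertical axis, the same in all panels) of the 10 genes and of 7 other gene lists in control mice 1 to 4 (grey) and tRA mice 1 to 4 (red). The 10 genes stand between -0.28 and 0.30, with both extremes in controls, while the immediate early genes are low in tRA mice 3 and 4 and the neutrophil precursor markers stand below the controls in all 4 tRA mice.

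Promoter sequences from RefSeq (GRCm38.p6), from 250 bases before to 50 after the start of the gene, were matched for 8 of the 10 genes. They were searched on both strands for AGGTCA, the core site that retinoic acid receptors bind, for its direct repeat with 5 bases between, and for AGGTGTGA, the core site of T-box factors such as Eomes. The core site was found in Ncr1 and Klrb1c and stands in 16.3% of 32851 promoters. The direct repeat was in 0 of the 8 and in 0.00913% of all. The T-box letters were in Nkg7 alone of the 8, and in 1.28% of all promoters. The promoters of Ncr1 and Nkg7 are shown as examples of a receptor and a granule gene that hold them, with these letters in capitals, AGGTCA in the first (chr7:4337465-4337764, plus strand) and AGGTGTGA in the second (chr7:43436888-43437187, plus strand). A match of letters is a description and no sign of binding in these cells.
Ncr1: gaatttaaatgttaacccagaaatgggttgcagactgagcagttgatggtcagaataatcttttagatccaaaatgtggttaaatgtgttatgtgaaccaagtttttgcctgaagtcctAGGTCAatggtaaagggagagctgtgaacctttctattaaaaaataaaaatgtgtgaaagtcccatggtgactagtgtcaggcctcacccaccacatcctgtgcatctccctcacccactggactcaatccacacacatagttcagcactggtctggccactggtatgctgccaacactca
Nkg7: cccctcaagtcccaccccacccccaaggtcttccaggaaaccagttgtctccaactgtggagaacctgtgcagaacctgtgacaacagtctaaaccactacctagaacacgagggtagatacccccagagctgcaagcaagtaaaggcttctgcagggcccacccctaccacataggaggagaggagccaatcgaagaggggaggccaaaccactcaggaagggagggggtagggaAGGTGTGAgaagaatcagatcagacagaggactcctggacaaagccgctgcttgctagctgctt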

How the data were processed

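The deposited gene counts of the 8 libraries, counted by the authors for Ensembl identifiers, were used as they stand. Of 51826 identifiers, 51633 matched GENCODE M21 (GRCm38), from which positions and exon lengths were taken. The submitters list STAR 2.5.2b, featureCounts 1.5.1 and DESeq2 1.26.0, whereas the methods of the study name Tophat2 and HTSeq; which made the counts cannot be told from the table. The authors' DESeq2 comparison table (means of normalized counts, log2 fold changes, standard errors, statistics, p and adjusted p) was not used here, nor were protein sequences. Each replicate is a mouse.

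Counts were scaled by TMM, filtered with filterByExpr (minimum count 10) and tested with the quasi-likelihood test of edgeR 4.0.16 (R 4.3.3), adjusted over all genes tested by the Benjamini-Hochberg method, with FDR under 0.1 as the threshold. Alternatives were RLE scaling, library size alone, no filter, a minimum of 10 counts for each sample, protein-coding genes alone, DESeq2 1.42.0, limma-voom 3.58.1, robust empirical Bayes, a replicate block and leaving out each mouse. The tests were tried on simulated data of the same size, at an FDR under 0.1. There edgeR made 155 calls, 16 of them false, and DESeq2 made 192, 46 of them false. Of 67 genes given a log2 change of 0.5, edgeR recovered 24 and DESeq2 30. Log2 CPM used a prior count of 2. Exact permutation tests used mean log2 CPM over all 70 splits. Python 3.11.15, pandas 2.3.3, numpy 2.4.6, scipy 1.17.1 and matplotlib 3.10.9 made the tables and figures.

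The 10 genes and the companion lists were chosen with earlier results of these data known. Named are the 10 genes, the most abundant gene per length of each list, up to 6 genes of a list with the lowest unadjusted p under 0.05, genes listed at 0, and other genes among those with the highest r with the mean of the 10. Some exon bases are shared with overlapping genes, and reads there cannot be assigned.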

Additional observations from a re-analysis of the deposited data

Results flagged for a closer look

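In 1 of 56 sets of values from 4 mice, a single mouse lay apart from its group, where chance gives about 2.8. The summed level of the ligands of NK receptors was 882 CPM in control mouse 3, and the next highest control had 761 CPM. The gap made up 0.927 of the range of the controls. Control mouse 3 also had the highest mean of the 10 cytotoxic and NK receptor genes. The cause was not tested.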

How the results depend on the processing

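In every alternative run, 0 of the 10 genes had an FDR under 0.1. At an unadjusted p under 0.05 there was 1 with the replicate block (Ncr1) and 0 to 1 with 1 mouse left out, the 1 being Ncr1 without control mouse 2. Over all genes there were 1200 of 16484 with the block and 1135 of 16735 without control mouse 2. The median log2 fold change of the 10 lay between -0.08 (without control mouse 1) and 0.08 (without control mouse 3).

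With each mouse left out, the log2 fold change ran from -0.16 to 0.0707 for Klrb1c, -0.0593 to 0.18 for Klrd1, -0.0709 to 0.23 for Klrk1, -0.25 to 0.0534 for Gzma, -0.0434 to 0.0830 for Gzmb, -0.14 to 0.0355 for Nkg7 and -0.12 to 0.0513 for Eomes. It kept its sign for Ncr1 (0.15 to 0.39), Klrg1 (0.11 to 0.29) and Prf1 (-0.10 to -0.0146). Under the alternatives of scaling, filter, tool and block the sign turned for 0 of the 10. Leaving out tRA mice 3 and 4 together, chosen after seeing the data for their low immediate early genes, gave -0.0694 for Klrk1 and -0.0354 for Gzmb.

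These companion counts at an unadjusted p under 0.05 moved by more than 1.5 times or to or from 0, and smaller moves follow. Without a filter on low counts they were 2 for other NK receptors, 0 for other granzymes, 1 for lineage regulators, 3 for T cell markers and 6 for immediate early genes. With the replicate block they were 2 for other NK receptors, 1 for adapters, 0 for other granzymes, 2 for regulators, 2 for cytokine receptors, 3 for T cell markers and 7 for immediate early genes. Without tRA mice 3 and 4 they were 0 for other NK receptors, 1 for effector cytokines, 1 for regulators, 0 for cytokine receptors, 0 for trafficking receptors and 0 for innate lymphoid and NKT markers. In that fit the log2 fold change was 0.26 for Stat4, 0.19 for Cd226, 0.27 for Il7r and 0.10 for Spn. With all mice it was 0.27, 0.22, 0.33 and 0.28 for the same genes. Other granzymes had 0 with limma-voom and with robust empirical Bayes. T cell markers had 0 with RLE scaling, 2 with library size alone, 0 when each sample needed 10 counts, 0 when only protein-coding genes were tested, 3 with DESeq2 and 3 with robust empirical Bayes. B cell markers had 1 under the 10-count rule, with protein-coding genes alone, DESeq2 and limma-voom. Smaller moves were 2 for ligands and 3 for innate lymphoid and NKT markers with the replicate block, 3 for plasma cell markers with protein-coding genes alone and without tRA mice 3 and 4, 4 for immediate early genes with library size alone, DESeq2 and limma-voom, and 8 for neutrophil precursor markers without a filter, with DESeq2, with the replicate block and without tRA mice 3 and 4. With 1 mouse left out the counts were 0 to 6 for other NK receptors, 0 to 1 for adapters, 1 to 4 for ligands, 0 to 1 for other granzymes, 0 to 1 for exocytosis, 1 to 4 for effector cytokines, 0 to 4 for regulators, 1 to 2 for cytokine receptors, 0 to 2 for trafficking receptors, 0 to 4 for T cell, 0 to 1 for B cell, 0 to 1 for monocyte, 0 to 1 for basophil and mast cell, 0 to 3 for innate lymphoid and NKT markers and 3 to 9 for immediate early genes. The highest counts for other NK receptors, effector cytokines, regulators and immediate early genes came without tRA mouse 1, where 2105 of 16683 genes in all had such a p.

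At an FDR under 0.1, neutrophil precursor markers numbered 3 without a filter, 4 with DESeq2, 1 with limma-voom, 3 without tRA mice 3 and 4, and 0 to 3 with 1 mouse left out, the 3 without tRA mouse 4. Immediate early genes numbered 2 with DESeq2. Over all genes there were 6 of 29817 without a filter, 27 of 13625 with DESeq2 and 1 of 16484 with limma-voom. Without tRA mice 3 and 4 there were 3 of 17049, and without tRA mouse 4 alone 3 of 16732. The cause was not tested.

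The replicate block pairs a control and a tRA mouse by number, and nothing in the labels says that they share more than that. Deviations from the group means correlated at 0.157, -0.0229, -0.0140 and 0.259 for the pairs. With 4 mice a group, the intervals of the 10 genes admit ratios from 0.711 to 1.54, and bulk counts cannot separate cell number from RNA per cell. Paralogs in the NK gene complex and the reference strain limit the receptor counts.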
